A study of Arabidopsis thaliana with 18 samples.

Results

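The transcripts described here were already well expressed in mock-treated Arabidopsis thaliana seedlings. Antimycin A strongly boosted them in all 3 genotypes, and mutant levels lay within 2-fold of wild type, all as the choice required. These transcripts were chosen from group means of the log2 intensity. A probe set had to reach a mock mean of at least log2 of 200 in each genotype, its mean had to be at least 2 log2 units (4-fold) higher under antimycin A than under mock in each, and each mutant had to lie within 1 log2 unit (2-fold) of wild type under both treatments. Of 22746 probe sets that are not controls, 8275 passed the mock level, 180 of these also passed the response limit, and 163 passed all limits, which is 0.717% of the array. PUB22, PUB23, STZ, WRKY6 and WRKY53 were to be left out, and none of their probe sets passed all limits in any case. Of the 163 probe sets, 72 name 1 gene each, 3 name several genes and 88 are unnamed here.

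The data are 18 Affymetrix ATH1 arrays, on which a probe set of short oligonucleotides reads each transcript, with 3 arrays in each of 6 groups. The groups are rao1-1 seedlings under antimycin A and under mock, rao1-2 seedlings under antimycin A and under mock, and wild type seedlings (labelled Col-Luc) under antimycin A and under mock. The rao1 names stand for regulators of alternative oxidase 1a, and both are mutant lines found by a forward genetic screen, at the seedling age used here. All plants were 14 days old and grew on Gamborg B5 medium with 3% sucrose under 16 h of light and 8 h of darkness at 22 °C. Antimycin A was sprayed on at 50 µM, the mock spray was deionised water, and green tissue was taken 3 h later. The labels number the replicates without saying that they are separate cultures, so p-values measure only the sample-to-sample spread, and that spread may be technical.

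Antimycin A blocks electron flow through complex III of the mitochondrial respiratory chain. The nucleus responds to such a block by mitochondrial retrograde signalling, whose best known target is the gene for alternative oxidase. Early plant stress responses also include calcium signals, receptor kinases, ubiquitin ligases and cell wall enzymes, many of whose transcripts are known to accumulate within hours of touch, wounding, cold or microbial elicitors.

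The deposited intensities were already normalized, so a value is relative to most of the other probe sets, and array medians lay between 78.0 and 92.1. Within groups, the mean correlation of an array with its replicates lay between 0.985, for rao1-2 mock replicate 1, and 0.995. Green tissue was present on all arrays: the summed intensity of RCA, LHCB4.1 and LHCB4.2, the 3 named of 10 green tissue markers, lay between 50487 and 69907. It was 52857 to 60145 under antimycin A against 55877 to 60586 under mock in rao1-1, 50856 to 53206 against 56477 to 64554 in rao1-2, and 50487 to 56523 against 60918 to 69907 in wild type. In limma none of the 3 markers was called lower in rao1-1, 1 was in rao1-2 and all 3 were in wild type. Of 10 root markers, PYK10 and EXPA7 were named. EXPA7 lay below the background limit (an intensity of 21.9) on every array, and PYK10 lay above it on every array. Their sum, nearly all of it PYK10, lay between 58.9 and 1471. PYK10 averaged 946 ± 282 under antimycin A against 1118 ± 356 under mock in rao1-1. It averaged 632 ± 419 against 462 ± 374 in rao1-2 and 1013 ± 300 against 799 ± 174 in wild type (SD, n = 3). The 25S ribosomal RNA control moved with treatment, at 14.20 under antimycin A against 12.96 under mock in rao1-1, 14.03 against 12.98 in rao1-2 and 13.65 against 12.81 in wild type (mean log2 intensity). The added poly(A) controls were likewise higher, at 7.38 against 7.16, 7.41 against 7.11 and 7.37 against 7.12. Their part in the responses below was not tested, and in these whole-tissue samples fewer cells of a type and less RNA per cell cannot be told apart.

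The 163 probe sets formed a block that was high on all antimycin A arrays and low on all mock arrays. Their mean log2 intensity was 12.14, 11.97 and 11.94 on the antimycin A arrays against 9.09, 9.04 and 9.09 on the mock arrays of rao1-1. It was 12.11, 12.21 and 12.02 against 8.93, 9.29 and 9.37 in rao1-2, and 12.02, 12.19 and 12.06 against 8.97, 8.92 and 9.10 in wild type. Group means were 12.02 ± 0.105 against 9.08 ± 0.029 in rao1-1, 12.11 ± 0.091 against 9.20 ± 0.233 in rao1-2, and 12.09 ± 0.086 against 8.99 ± 0.094 in wild type (SD, n = 3 arrays each). The response, the mean log2 intensity under antimycin A minus that under mock, had a median over the 163 of 2.79 in rao1-1 (from 2.02 to 5.11), 2.79 in rao1-2 (from 2.00 to 5.60) and 2.93 in wild type (from 2.01 to 5.19). Over the 8275 probe sets that passed the mock level the medians were -0.28, -0.32 and -0.35. The same group means chose the members, so these values describe the choice and were not tested.

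**Figure D1:**
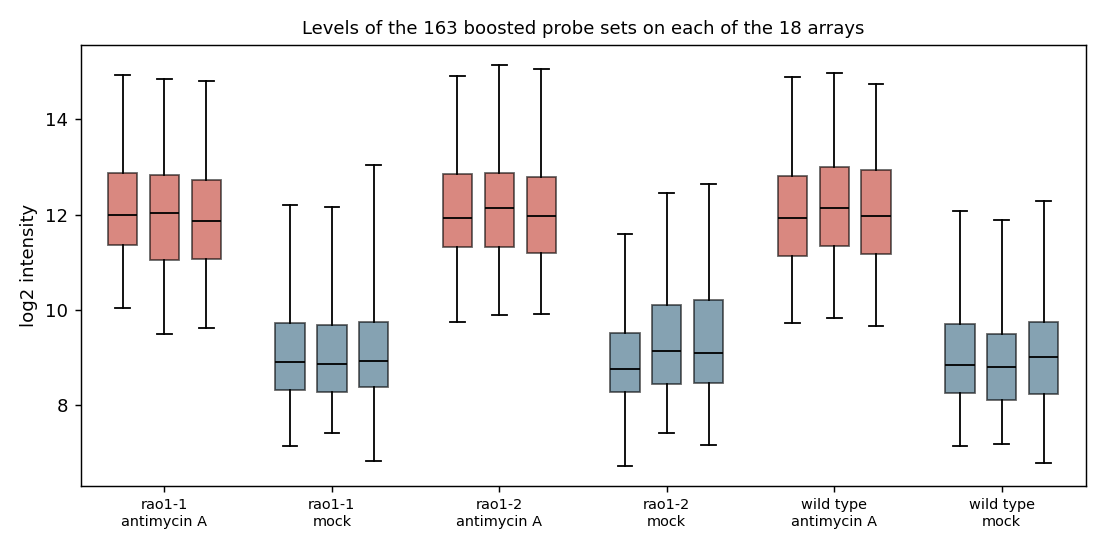
Log2 intensity of the 163 boosted probe sets on each of the 18 arrays, with antimycin A arrays in red and mock arrays in blue. Each box spans the quartiles with the median as a line, and whiskers reach the lowest and highest probe set. The mean of the 163 lay between 11.94 and 12.21 on antimycin A arrays and between 8.93 and 9.37 on mock arrays.

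In limma, with Benjamini-Hochberg adjustment over all 22746 probe sets, all 163 were called higher under antimycin A in each genotype, where 15.8% of all probe sets were called higher in rao1-1, 15.6% in rao1-2 and 14.4% in wild type. The limits fixed these directions. For every one of the 163, the lowest of the 9 antimycin A arrays lay above the highest of the 9 mock arrays, which held for 11.1% of all probe sets. For 154 of them the gap between those arrays was at least 2-fold, against 3.62% of all probe sets. The mean response over the genotypes was at least 3 for 68 probe sets, at least 4 for 16 and at least 5 for 1, XTH18. Among probe sets past the mock level, 64 were at least 2 lower under antimycin A in all 3 genotypes.

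Cell wall enzymes held the member with the largest mean response. XTH18 and XTH19 encode xyloglucan endotransglucosylase/hydrolases, enzymes that cleave and rejoin the xyloglucan chains that tether cellulose. XTH18 (AT4G30280) read 22518, 17224 and 16172 under antimycin A against 585, 459.8 and 1284 under mock in rao1-1, 26175, 22962 and 21718 against 691, 586 and 283 in rao1-2, and 17733, 15171 and 16032 against 558, 529 and 299 in wild type. No antimycin A array overlapped a mock array, and 1 rao1-1 mock array, at 1284, lay above all other mock arrays. These are responses of 4.72, 5.60 and 5.19 in rao1-1, rao1-2 and wild type, the order kept for all responses (SE 0.374 each), or 26.3, 48.5 and 36.6 times the mock level. XTH19 (AT4G30290), whose gene is the next one in the annotation, read 3093, 2128 and 2093 under antimycin A against 318, 286 and 474 under mock in rao1-1, 2804, 3687 and 2990.2 against 466, 226 and 343 in rao1-2, and 3657, 2323 and 2510.2 against 353, 469.7 and 114 in wild type. Its antimycin A arrays all lay above its mock arrays, with responses of 2.77, 3.25 and 3.38, and whether probes of either gene also bind the other's transcript was not tested.

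TBL38 (AT1G29050), of a family of wall polysaccharide acetyltransferases, and AT3G55430, of a beta-1,3-glucanase family, completed the wall group. TBL38 read 1994, 1646 and 1664 under antimycin A against 399, 345 and 385 under mock in rao1-1, 2286, 2108 and 1834 against 375, 343 and 339 in rao1-2, and 1188, 1004 and 1124 against 245, 201 and 297 in wild type. All 6 mutant arrays lay above all 3 wild type arrays under both treatments, and its responses were 2.23, 2.55 and 2.17. AT3G55430 read 4002, 3414 and 2110.4 under antimycin A against 417, 414 and 537 under mock in rao1-1, 3460.2, 4908 and 4080.4 against 406, 521 and 509 in rao1-2, and 3445, 4212 and 2973 against 242, 243 and 268 in wild type. Its mock level was higher in both mutants than in wild type, by 0.85 in rao1-1 and 0.93 in rao1-2, and its responses were 2.76, 3.11 and 3.81.

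Of 7 genes of calcium and calmodulin, the median mean response was 3.37. AT3G01830 (CML40), AT4G27280, AT3G25600 (CML16) and AT3G10300 encode EF-hand calcium-binding proteins, AT2G26190 a calmodulin-binding protein, and SRC2 and AT4G34150 proteins with a C2 domain, which binds membranes in a calcium-dependent way. AT3G01830 read 6006, 7659 and 5442 under antimycin A against 302, 416 and 267 under mock in rao1-1, 5697, 7186 and 6267 against 133, 489.7 and 371 in rao1-2, and 6058, 7554 and 6816 against 156, 146 and 425 in wild type. The groups did not overlap in any genotype, and single mock arrays of rao1-2 and of wild type lay well apart from the other two of their group. Its responses were 4.29, 4.46 and 4.99 (SE 0.439). AT4G27280 read 13724, 11979.9 and 13754 under antimycin A against 801, 801 and 1305 under mock in rao1-1, 16338, 16980.5 and 12328 against 759, 1138 and 1232 in rao1-2, and 15122, 13968 and 15755 against 924, 709 and 579 in wild type, with responses of 3.80, 3.88 and 4.37 (SE 0.225). AT4G34150, SRC2 and AT2G26190 had mean responses of 3.83, 3.34 and 3.37, and AT3G25600 and AT3G10300 lay nearer the limit at 2.35 and 2.23. AT3G25600 lies beside AT3G25610 in the annotation, which is also a member.

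Kinases and a phosphatase, 7 genes, had a median mean response of 3.00. AT5G25930 is a leucine-rich repeat receptor kinase, AT1G18390 a receptor-like kinase of the LRK10L family, AT4G18950 a Raf-like kinase, and AT3G59350 and PTI1-4 are Pti1-like kinases. BIK1 (AT2G39660) is a cytoplasmic kinase that relays signals from pattern-recognition receptors in immunity. BIK1 read 4072, 4278 and 3207 under antimycin A against 621, 528 and 594 under mock in rao1-1, 2843, 3772 and 3612 against 590.2, 702 and 702 in rao1-2, and 2715, 3328 and 3606 against 420.4, 588 and 675 in wild type. Antimycin A and mock arrays lay far apart, and the responses of 2.72, 2.35 and 2.54 (SE 0.175) made its difference between mutants and wild type, 0.00, the value nearest 0 in this group. AT5G25930 had the largest mean response of the group, 3.42, with 3.38, 2.92 and 3.96 in rao1-1, rao1-2 and wild type. AT3G59350 read 7539, 4747 and 4729 under antimycin A against 716, 705 and 1016 under mock in rao1-1, 8737, 8846 and 7123 against 721, 469 and 457 in rao1-2, and 6648, 6713 and 6641 against 979.6, 884 and 793 in wild type. Its mock level was lowest in rao1-2, and its response there was 3.93, against 2.79 in rao1-1 and 2.92 in wild type. AT1G68410, a protein phosphatase of type 2C, had responses of 2.37, 3.03 and 2.97.

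Of 5 genes of transcription, 4 had a smaller mean response in the mutants than in wild type under every scaling tried. Beside them, 106 to 140 of all 163 members had a smaller one under these scalings. None of the 5 differences was called in limma, where only 0.176% of all probe sets were called lower and 0.22% higher. With so few calls on the array, no call among 5 genes says little about them. The group was written by hand after the members were known. The median mean response of the 5 was 3.26. AT4G17900 encodes a PLATZ zinc-binding protein, BZIP60 (AT1G42990) a factor that is spliced and activated in the unfolded protein response of the endoplasmic reticulum, AT3G46600 a GRAS protein, and AT5G46780 and AT2G22880 VQ-motif proteins, which bind WRKY factors. AT4G17900 read 8623, 7837 and 6846 under antimycin A against 396, 391 and 337 under mock in rao1-1, 8039, 7823 and 8179 against 308, 332 and 512 in rao1-2, and 6762, 8219 and 7819 against 219, 235 and 365 in wild type. The antimycin A arrays of the 3 genotypes overlapped, far above the mock arrays, and its responses were 4.37, 4.42 and 4.83 (SE 0.197). BZIP60 read 17103, 15384 and 11225 under antimycin A against 2251, 2169.8 and 1535 under mock in rao1-1, 15504, 15029 and 16033 against 1164, 1399 and 2106 in rao1-2, and 16086, 16226 and 16130.0 against 928, 1316 and 2037 in wild type. On the log2 scale its mock level spread more than its antimycin A level in rao1-2 and wild type, and its responses were 2.87, 3.36 and 3.58 (SE 0.266). AT2G22880 read 2380.1, 2260.1 and 1939.8 under antimycin A against 389, 314 and 275 under mock in rao1-1, 2237, 2421 and 2052 against 258, 386 and 294 in rao1-2, and 3791, 4266 and 3544 against 302, 424 and 515 in wild type. Under antimycin A all 6 mutant arrays lay below all 3 wild type arrays, a log2 difference from wild type of -0.82 in rao1-1 and -0.79 in rao1-2. AT5G46780 had responses of 2.98, 3.05 and 3.75, and AT3G46600 went the other way at 2.84, 2.95 and 2.39.

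Averaged over both mutants, all 5 genes of ubiquitin handling had a larger response than in wild type, by 0.07 to 0.51 log2 units. With the arrays centred on the hybridisation controls, 2 of them had a smaller one. In single mutants, AT3G52800 in rao1-1 and AT4G36550 in rao1-2 had a smaller response than in wild type. Over all 163 members, the averaged response was smaller than in wild type for 106. The group was written by hand after the members were known, and its count was not tested. AT3G52800 encodes an A20/AN1 zinc finger protein of the stress-associated family, AT4G36550 a U-box protein, AT5G66070 and AT4G26400 RING proteins, and AT3G02070 an OTU-like cysteine protease, a class that removes ubiquitin. AT3G52800 read 14856, 11019 and 11363 under antimycin A against 613, 494 and 691 under mock in rao1-1, 16992, 17238 and 12595 against 544, 690.1 and 678 in rao1-2, and 10717, 11699.5 and 9957 against 418, 532 and 575 in wild type. The groups did not overlap, and its responses were 4.37, 4.61 and 4.42 (SE 0.172). AT4G26400 read 3203, 2374 and 3003 under antimycin A against 455, 436 and 463 under mock in rao1-1, 2818, 2529 and 2265 against 371, 451 and 484 in rao1-2, and 1922, 2359 and 1906 against 448, 486 and 519 in wild type. Its responses were 2.65, 2.55 and 2.09, those of AT5G66070 were 3.42, 3.25 and 2.90, those of AT3G02070 were 2.84, 2.86 and 2.39, and those of AT4G36550 were 2.71, 2.06 and 2.28. None of these differences in response was called. For the mean of both mutants only 0.176% of all probe sets were called lower and 0.22% higher, so nothing is read from this.

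**Figure D2:**
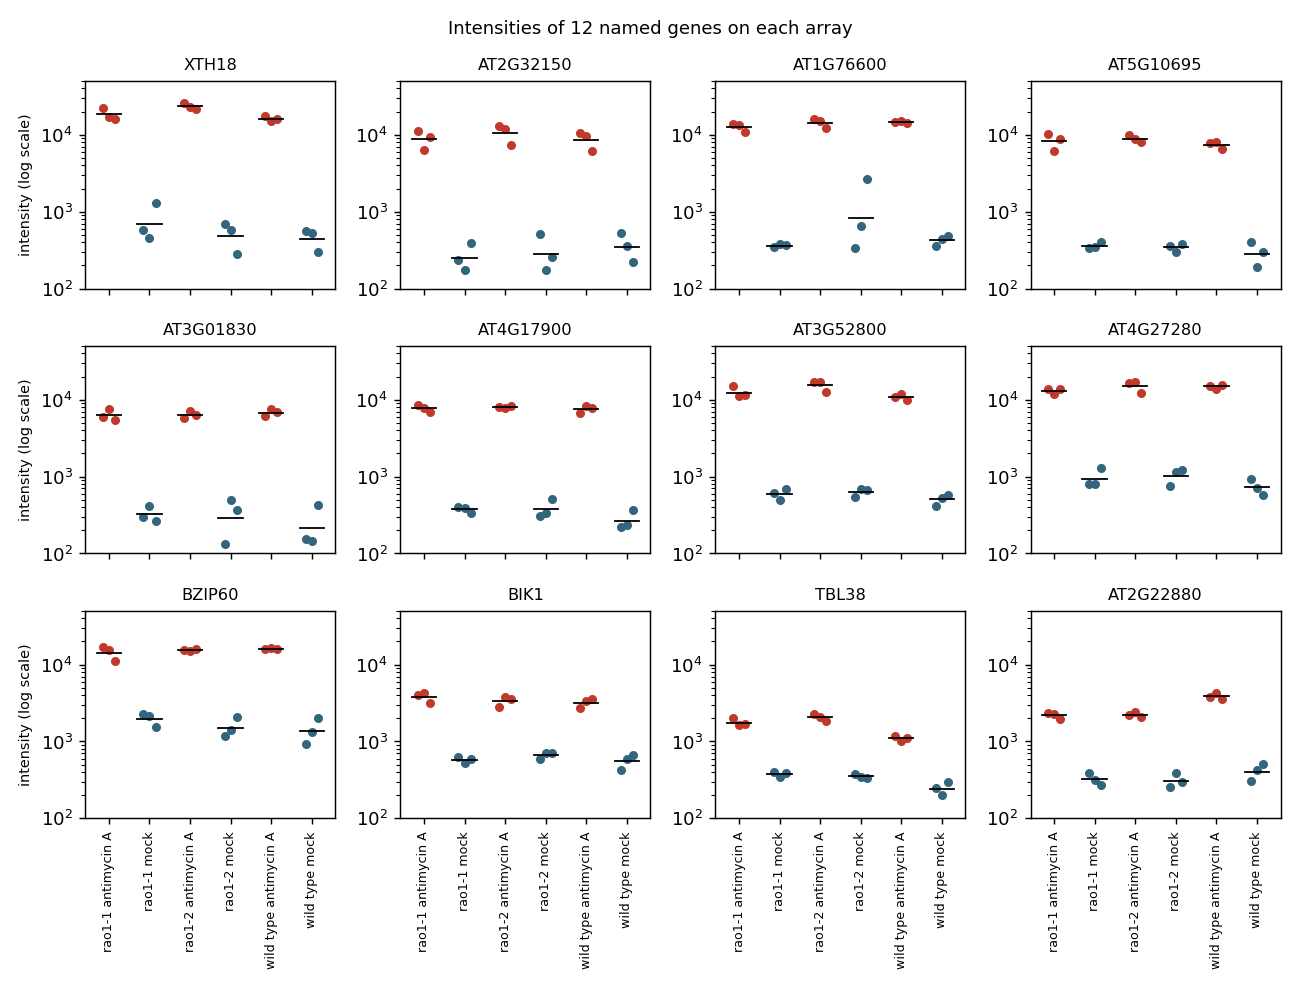
Intensity on a log scale of 12 named genes on each array, with antimycin A arrays in red and mock arrays in blue, and a black line at each group's geometric mean. XTH18 had the largest mean response, TBL38 was higher and AT2G22880 lower in both mutants than in wild type under antimycin A, and 1 mock array of rao1-2 stood above the others for AT1G76600.

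Of 5 defence-related genes, 4 had a smaller mean response in the mutants than in wild type. All 5 did when the arrays were centred on the hybridisation controls. Of all 163 members, 106 had a smaller one, and 140 did with that centring. None of the 5 differences was called in limma, where only 0.176% of all probe sets were called lower and 0.22% higher, so nothing is read from this. AT1G57630 encodes a TIR-domain protein, AT1G17620 a protein of the NDR1/HIN1-like family, AT3G22060 and AT5G48540 secreted proteins with cysteine-rich DUF26 domains, and AT1G17860 a Kunitz-type protease inhibitor. AT1G57630 had the largest mean response of these, 3.22, with 2.82, 3.16 and 3.68 in rao1-1, rao1-2 and wild type, and AT1G17860 followed at 3.11. AT3G22060 read 7949.6, 9922 and 6062 under antimycin A against 2239.5, 1853 and 1474 under mock in rao1-1, 7129.8, 8514 and 9649.8 against 1511, 1728 and 1477 in rao1-2, and 6455, 6627 and 8677 against 865, 611 and 1766 in wild type. Its mutant mock arrays lay on average above wild type, by 0.79, while the antimycin A level differed by 0.17. AT5G48540 was lower in the mutants under both treatments, with mean differences of -0.74 under antimycin A and -0.56 under mock.

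The 10 genes of membranes and traffic had the lowest median mean response of the named groups, 2.48. AT3G25610 (ALA10) and AT1G13210 (ALA11, listed as ACA.l) are phospholipid flippases, which move lipids between the leaflets of a membrane. AT3G25610 read 3453, 4445 and 4053 under antimycin A against 279, 299.6 and 221 under mock in rao1-1, 3598, 3686 and 3127 against 229.9, 409 and 370.5 in rao1-2, and 3296, 4984 and 5305 against 203, 214 and 345 in wild type. Its responses were 3.90, 3.41 and 4.17, the largest of the group, and those of AT1G13210 were 2.92, 3.04 and 2.82. TET8, a tetraspanin found on extracellular vesicles, had responses of 2.42, 2.14 and 2.82, and VPS60.1, associated with the ESCRT machinery that sorts cargo into vesicles, had 2.18, 2.12 and 2.41. NET4B, an actin-binding protein, read 1779, 1119.8 and 1237 under antimycin A against 288, 307 and 352 under mock in rao1-1, 1457, 1721 and 1402 against 272, 223 and 252 in rao1-2, and 968, 961 and 864 against 247, 215 and 207 in wild type. Its antimycin A level was above wild type by 0.54 in rao1-1 and 0.71 in rao1-2. The formin AT1G59910, which nucleates actin filaments, had a mean response of 2.49. AT1G50740, a TMEM14 family protein, AT5G47730, a Sec14-like lipid transfer protein, AT2G21120, a magnesium transporter-like protein, and AT3G49350, a Rab GTPase-activating protein, had 3.08, 2.59, 2.43 and 2.15.

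Metabolic and hormone-related genes, 10 in all, included 8 with a smaller mean response in the mutants than in wild type under the deposited scaling. Poly(A) centring and quantile normalization also gave 8, and hybridisation-control centring gave 9. Of all 163 members, 106 had a smaller one under the deposited scaling. That number was 108 with poly(A) centring, 108 with quantile normalization and 140 with hybridisation-control centring. None of the 10 differences was called with all arrays kept. In the main fit only 0.176% of all probe sets were called lower and 0.22% higher, so nothing is read from this. AT2G32150, a hydrolase of the haloacid dehalogenase superfamily, read 11183, 6363 and 9276 under antimycin A against 237, 176 and 388 under mock in rao1-1, 12935, 12028 and 7362 against 509, 176 and 257 in rao1-2, and 10626, 9605 and 6209 against 536, 360.4 and 219 in wild type. Its responses were 5.11, 5.20 and 4.62 (SE 0.432), or 34.4, 36.8 and 24.7 times the mock level. AT5G43450, a 2-oxoglutarate-dependent dioxygenase, had responses of 4.15, 3.50 and 4.15, and AT3G44190, an FAD/NAD(P)-binding oxidoreductase, had 3.79, 3.00 and 3.94. AT4G13180, a short-chain dehydrogenase, read 6820.5, 7571 and 6010.4 under antimycin A against 947, 1081 and 1057 under mock in rao1-1, 5515, 6387 and 5312 against 413, 1775 and 2747 in rao1-2, and 7499, 9852 and 8627 against 661, 1052 and 1130.2 in wild type. Its mock arrays in rao1-2 spread from 413 to 2747, and its responses were 2.72, 2.18 and 3.22 (SE 0.479). AT4G19880, of the glutathione S-transferase family, had responses of 3.03, 2.102 and 3.12, with the smallest in rao1-2. OPCL1, a CoA ligase that activates precursors of jasmonate, the wound hormone, lay near the limit at 2.31, 2.03 and 2.06. AT2G36950 and AT5G03380, with heavy-metal-associated domains, AT2G14900, a GASA peptide, and AT5G35735, a cytochrome b561 protein, had mean responses of 2.80, 2.79, 2.55 and 2.17.

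No role is given here for 19 named genes, whose median mean response was 2.79. AT1G76600 read 13678, 13210.1 and 10866 under antimycin A against 346, 375 and 369 under mock in rao1-1, 15936, 14998 and 12157 against 332, 643 and 2692 in rao1-2, and 14532, 15252 and 14158 against 359, 441 and 481 in wild type. Its mock array of 2692 in rao1-2 lay above every other mock array, and its responses were 5.11, 4.1 and 5.11 (SE 0.497). AT5G10695 read 10296, 6205 and 8818 under antimycin A against 333, 344 and 406 under mock in rao1-1, 9879, 8888 and 8099 against 354, 301 and 385 in rao1-2, and 7728, 7941 and 6469 against 397, 188 and 301 in wild type. The genotypes overlapped under both treatments, and its responses were 4.52, 4.69 and 4.70 (SE 0.233). AT1G19020 and AR781 (AT2G26530) followed with mean responses of 4.13 and 3.86. AT2G25735 read 3887, 3854 and 3145 under antimycin A against 619.8, 407 and 439 under mock in rao1-1, 3228, 3802 and 3138 against 471, 532 and 474 in rao1-2, and 5024, 5252 and 4891 against 769.7, 826 and 778 in wild type. It lay below wild type in both mutants and under both treatments, with log2 differences of -0.48 and -0.58 under antimycin A and -0.72 and -0.69 under mock, in rao1-1 and rao1-2. The other named genes of this group had mean responses between 2.26 and 3.21.

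**Figure D3:**
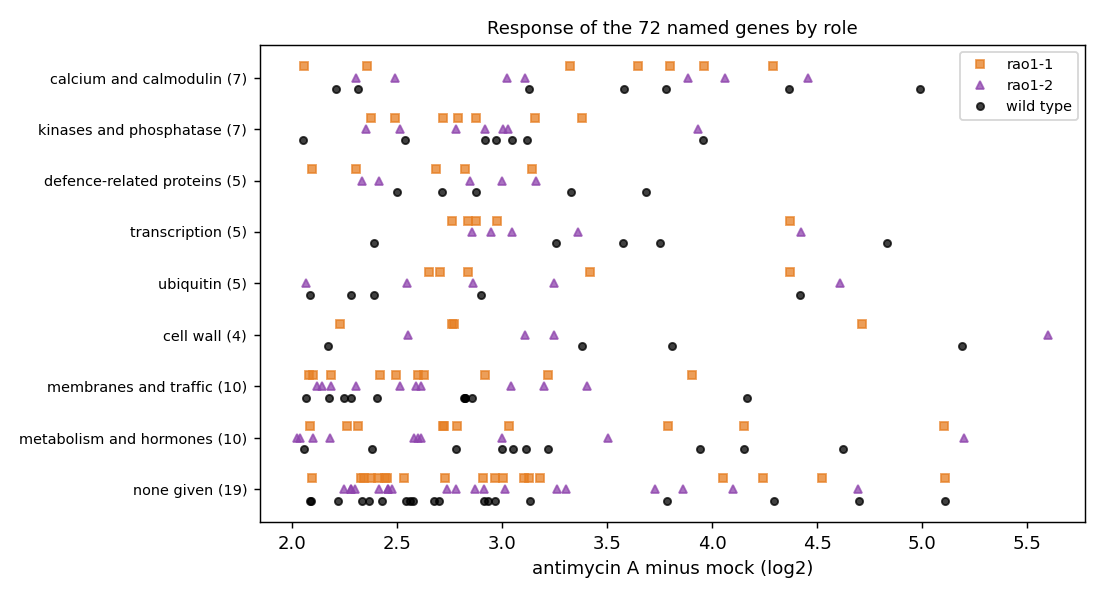
Response to antimycin A (log2, horizontal axis) of the 72 named genes by role, with the number of genes in parentheses. Squares are rao1-1, triangles rao1-2 and circles wild type, 1 symbol per gene and genotype. Every symbol lies above 2 by the choice of the genes, and XTH18 reached 5.60 in rao1-2.

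Among the 91 probe sets that do not name 1 gene, the largest mean responses were 4.55 for 264460_at, 4.52 for 264213_at and 4.30 for 251248_at. Probe set 264460_at read 6675, 8133 and 4527 under antimycin A against 237, 248 and 284 under mock in rao1-1, 5998, 6116 and 6441 against 279.9, 318 and 469 in rao1-2, and 6981, 8147 and 9314 against 261, 339 and 229.9 in wild type. The groups did not overlap, as for all members, and its responses were 4.62, 4.16 and 4.89.

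The mutants were also set against wild type, within the 2-fold window that the choice allowed. The limits removed probe sets with a weak response in a mutant or a mutant level outside this window. The members therefore cannot show whether the rao1 mutations altered the boost, and the values below describe them. Responses in the mutants tracked those in wild type, with Pearson's r over the 163 of 0.853 for rao1-1 and 0.788 for rao1-2. These correlations across probe sets share the wild type arrays and are bounded by the limits, so they are a description. Under antimycin A the mean of the mutants differed from wild type by a median of 0.00, while under mock it was higher by a median of 0.17 (0.10 in rao1-1 and 0.22 in rao1-2). Without rao1-2 mock replicate 1 the rao1-2 median was 0.341, and without replicate 2 of that group 0.141. Without wild type mock replicate 2 the rao1-1 median was 0.057. The median under antimycin A was between -0.0689 and -0.00491 under the other scalings tried, and that under mock stayed between 0.15 and 0.32.

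**Figure D4:**
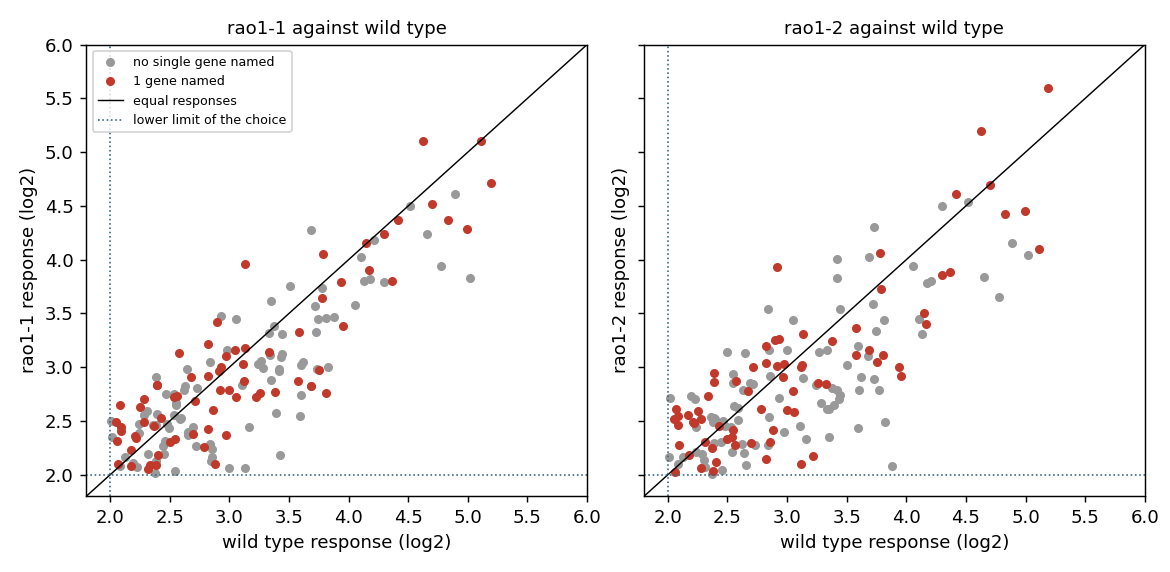
Response to antimycin A of the 163 probe sets in rao1-1 (left) and rao1-2 (right) against the wild type response, all on the log2 scale. Red points name 1 gene, grey points do not, the solid line marks equal responses and dotted lines the lower limit of the choice. Pearson's r was 0.853 for rao1-1 and 0.788 for rao1-2.

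The difference in response, the mean of both mutants' responses minus the wild type response, had a median of -0.15 over the 163 (from -1.11 to 0.53), against 0.02 over the probe sets past the mock level. Leaving out 1 array gave a median between -0.19 and -0.08, and it came nearer 0 by over 1.5 times without rao1-2 mock replicate 2 (-0.09), rao1-2 mock replicate 3 (-0.08), wild type antimycin A replicate 2 (-0.098) or wild type mock replicate 1 (-0.099) or 2 (-0.102). The difference was below 0 for 106 of the 163 probe sets, and for 97 to 111 when 1 array was left out. The response was smaller than in wild type for 103 in rao1-1, for 99 in rao1-2 and for 74 in both. No member was called for this difference in limma, where 0.176% of all probe sets were called lower and 0.22% higher. With each mutant set against wild type alone, no member was called for rao1-1, where 0.158% of all probe sets were called lower and 0.211% higher, and 1 was called lower for rao1-2, the unnamed 260602_at, where 0.114% were called lower and 0.0835% higher. This last call was lost under 17 of 24 alternatives. At an unadjusted p under 0.05 in limma, 16 members were lower and 3 higher for the mean of both mutants. That is 11.7% of the members against 11.8% of all probe sets. For rao1-1 alone 11 were lower and 1 higher, 7.36% against 10.8%. For rao1-2 alone 17 were lower and 6 higher, 14.1% against 9.79%. Without rao1-2 mock replicate 1, 4 members were called lower for the mean of both mutants, where 0.558% of all probe sets were. They were AT4G13180 and the unnamed 251248_at, 258452_at and 260602_at. Without wild type mock replicate 3 the unnamed 252474_at was called lower for the mean of both mutants, beside 0.317% of all probe sets. Without rao1-2 mock replicate 2 the unnamed 251248_at was called lower for rao1-1 against wild type, beside 0.176%. Centring on the hybridisation controls, which moved the median of all probe sets in this difference by -0.22, gave a median of -0.37 and 140 members below 0.

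Members with larger responses had more negative differences. Ordered by mean response, the lowest 55 probe sets had a median difference of 0.01, the middle 53 of -0.20 and the highest 55 of -0.33. Of these, 26, 35 and 45 lay below 0. Over the 163, Pearson's r between mean response and difference was -0.274 and Spearman's rho -0.362, given as a description, since both contain the wild type response and the lower limit of 2 in each genotype bounds the first group.

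**Figure D5:**
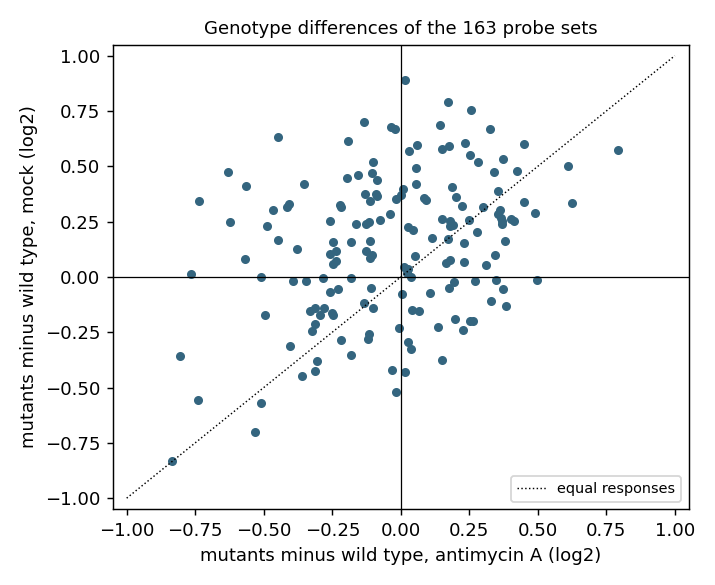
Mean of both mutants minus wild type (log2) under antimycin A (horizontal axis) and under mock (vertical axis) for each of the 163 probe sets. The dotted line marks equal responses, and 106 probe sets lie above it, with a smaller response in the mutants than in wild type. The medians were 0.00 under antimycin A and 0.17 under mock.

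Few members were called between genotypes inside the window, and nothing is read from their number. Under antimycin A, 2 (1.23%) were called higher and 3 (1.84%) lower in rao1-1 than in wild type, beside 1.77% and 1.49% of all probe sets. In rao1-2, 2 (1.23%) were called higher and 2 (1.23%) lower, beside 1.34% and 1.12%. Under mock, 4 (2.45%) were called higher and 1 (0.613%) lower in rao1-1, beside 1.84% and 2.19%. In rao1-2, 1 (0.613%) was called higher and 1 (0.613%) lower under mock, beside 0.633% and 0.739%. Named among them were TBL38, NET4B and AT3G55430 on the higher side and AT2G22880 and AT2G25735 on the lower, with the values above. All 6 mutant antimycin A arrays lay below all 3 of wild type for 18 members (11%), beside 3.93% of all probe sets. They lay above them for 10 members (6.13%), beside 4.92%. Between rao1-2 and rao1-1 no member was called under antimycin A or under mock, where 0.0572% of all probe sets were called higher and 0.044% lower under antimycin A, and 0.0659% and 0.0791% under mock. Under antimycin A 14 members had an unadjusted p under 0.05, 8.59% of the members against 9.11% of all probe sets. Under mock 21 had one, 17 of them higher and 4 lower in rao1-2 than in rao1-1, which is 12.9% of the members against 5.61% of all probe sets. Against wild type under mock, 40 had one in rao1-2, 33 higher and 7 lower, 24.5% against 13.5% of all probe sets. In rao1-1 there were 27, 17 higher and 10 lower, 16.6% against 16.7%. Against wild type under antimycin A, 25 members in each mutant had one. These 15.3% stood beside 17.9% of all probe sets for rao1-1 and 14.4% for rao1-2.

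The members' levels spread more between replicates than those of other expressed transcripts. The median pooled SD within groups was 0.288 log2 units for the 163, against 0.168 for all probe sets past the mock level. By group, the members' median SD was 0.193 under antimycin A against 0.207 under mock in rao1-1, 0.160 against 0.329 in rao1-2 and 0.178 against 0.331 in wild type. On rao1-2 mock replicate 1, 129 of the 163 lay below their group mean, with a median deviation of -0.25, as did 52.4% of all probe sets past the mock level. Without that array the lowest rao1-2 response among the members was 1.37, and 135 probe sets of the array design met all limits. The largest pooled SD was 0.888, for the unnamed 257315_at, which read 4688, 2327 and 2338 under antimycin A against 537, 368 and 1365 under mock in rao1-1, 8786, 7375 and 4747 against 742, 357 and 280.3 in rao1-2, and 8221, 5842 and 3779 against 1230.1, 756 and 158 in wild type. On the log2 scale its mock arrays spread more than its antimycin A arrays in all genotypes. AT1G76600 had the largest pooled SD of the named genes, 0.647.

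The limits divided a continuous range. Just inside the mock level lay AT1G18740 with a lowest group mean of 200.1 and 2 unnamed probe sets at 200.2 and 202.6, and just outside an unnamed one at 196.6, AT3G54150 at 196.3 and AT4G33940 at 191.0. Just inside the response limit were 3 unnamed probe sets with a lowest response of 2.002, 2.011 and 2.019, and just outside 2 unnamed ones at 1.999 and 1.994 and AT4G20830 at 1.99. On the limit between mutants and wild type, the largest differences inside were 0.986 for AT3G44190, 0.984 for an unnamed probe set and 0.973 for AT1G76600, and outside 1.079 for AT4G24160 and 1.095 each for PUB23 and STZ. In all, 17 probe sets missed only this last limit. Of these, 11 exceeded wild type in rao1-2 and 8 in rao1-1 under mock, while 4 were lower in rao1-1 and 1 in rao1-2 under antimycin A. None missed it by a lower mock level or a higher antimycin A level in a mutant.

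Other genes of rapid stress signalling, taken from lists of WRKY, ERF, zinc finger, NAC, MYB and heat shock factors, calcium and touch genes, kinases, jasmonate and ethylene genes and ubiquitin ligases, could be read for 10 of 127 genes listed. BIK1 was the only member among them. Of the other 9, 8 were called higher in rao1-1, 8 in rao1-2 and 7 in wild type. Beside them, 15.8%, 15.6% and 14.4% of all probe sets were called higher. None of the 9 was called lower, where 24.8%, 27.3% and 28.8% of all probe sets were. Calcium and touch genes made up 4 of the 9 and ubiquitin ligases 3, and the lists were chosen with earlier results of these data known. The median responses of the 9 were 2.38, 2.29 and 2.00. The calmodulin-like genes CML38 and CML37 missed the choice by their mock level. CML38, known from wounding and low oxygen, averaged 7313 ± 1914 under antimycin A against 55.9 ± 17.1 under mock in rao1-1, 8469 ± 230 against 74.7 ± 34.0 in rao1-2 and 7866 ± 1247 against 68.1 ± 13.3 in wild type (SD, n = 3). That was a response of 6.86 in wild type, or 116 times the mock level, with an adjusted p of 2.37e-09 in limma.

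CML37 lay below the background limit on all mock arrays, and was at least 28.2-fold higher in rao1-1; the bounds were 28.3-fold in rao1-2 and 50.9-fold in wild type. WRKY22, a transcription factor of immune signalling, had responses of 2.38, 3.78 and 3.43 in rao1-1, rao1-2 and wild type. The U-box ubiquitin ligases PUB24 and PUB26 had 2.44, 1.93 and 2.00, and 2.18, 2.29 and 1.28, all called. PUB25 had 1.52, 1.25 and 0.94, of which the wild type value was not called (adjusted p = 0.0577 in limma). CML23 had 1.02, 0.68 and 1.38, and AT1G76640 (CML39) was at least 3.02-fold, 1.14-fold and 1.31-fold higher, all called. EIN3, a transcription factor of ethylene signalling, was not called in any genotype, with 0.14, 0.00 and 0.05. For none of these genes was the difference in response between mutants and wild type called, where only 0.176% of all probe sets were called lower and 0.22% higher.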

How the data were processed

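Total RNA of 18 samples was hybridised to 1-colour ATH1 arrays, 400 ng per labelling per the labels' protocols. The authors deposited linear, already normalized intensities. Per the submitters' processing notes RMA and GCRMA were used, without versions, but not which of both made these intensities. No genome build is named and no coordinates are given.

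Sample labels gave the groups. Intensities were log2-transformed without a pseudocount. Of 22810 probe sets, 64 controls were left out, and limma 3.58.1 (R 4.3.3) fitted the other 22746, each with a mean for every group and 12 residual degrees of freedom. P-values were two-sided and adjusted by the Benjamini-Hochberg method over all 22746, and a probe set was called under 0.05. SEs are limma's. The fit was tested on simulated data with independent noise, for the wild type response only. That test did not cover differences between genotypes or deviations shared by arrays of the same replicate number. The number of arrays limits the precision. No pair of arrays held identical values.

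The platform annotation gave 1 gene to 13513 probe sets, several to 503 and none used here to 8730. Of the former, 13436 matched RefSeq's gene table of assembly TAIR10.1, used only for names and neighbours, and 70 of the 72 named members did (not AT1G32920 and AT3G57450). A probe set whose 3 arrays all lay below the background limit gives only a bound ("at least"), with values under the limit set to the limit. That limit, 4.45 on the log2 scale, was set from the values.

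The members and gene lists were chosen with earlier results of these data known. The same group means chose the members, so no test supports their levels, responses or genotype differences. Named genes were, by rule, up to 4 with the largest mean response in each family, the 10 largest of all members, the extremes of level, genotype difference and spread, those nearest each limit, and called genes of the lists. The families matched only 5 members, so the role groups were written by hand after the members were known, and all their genes were named. No promoter, protein or probe sequences were used here. Alternatives were quantile normalization, centring on 22 poly(A) or 12 hybridisation controls, the replicate number as a block, log2 of the intensity plus 16, a filter on dim probe sets, other limits, and leaving out each array. The labels do not say what the replicate number marks, so the fit has no block.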

Additional observations from a re-analysis of the deposited data

Results flagged for a closer look

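The unnamed probe set 260602_at differed between genotypes in its response to antimycin A. It read 7024, 6508 and 8115 under antimycin A against 677, 673 and 599 under mock in rao1-1, 5835, 5589 and 4782 against 832, 1263 and 1974 in rao1-2, and 8376, 9933 and 10734 against 641, 582 and 750.4 in wild type. Its response was 2.08 in rao1-2 and 3.88 in wild type, a difference of -1.80 ± 0.322 (SE) on the log2 scale, and 3.47 in rao1-1. It was the only member of the 163 called for the difference between rao1-2 and wild type in limma, beside 0.114% of all probe sets called lower. In rao1-2 its antimycin A arrays lay below, and its mock arrays above, all 3 wild type arrays of the same treatment. The call was lost under 17 of 24 alternatives, among them poly(A) centring, quantile normalization and the dim filter, while the difference stayed between -2.11 and -1.49. Without rao1-2 mock replicate 1, 9 members were called for this contrast, 8 lower and AT3G59350 higher, beside 0.699% of all probe sets called lower and 0.725% higher in that fit. The same group means chose the members, and the cause was not tested.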

How the results depend on the processing

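All 163 members kept their calls in each genotype under every alternative that kept all arrays. Leaving out 1 array gave between 160 and 163 in rao1-1 and 163 in the others. In the main fit 15.8%, 15.6% and 14.4% of all probe sets were called higher in rao1-1, rao1-2 and wild type. The members were chosen on these same arrays for a response of at least 2, so kept calls follow from the choice and do not test it. The number of members depended on the limits: 87 with a mock level of 400, 276 with a response of 1.5, 82 with 2.5, and 86 within 0.5 of wild type. It was 154 after quantile normalization, 125 with hybridisation-control centring and 114 with poly(A) centring, of which 109 were among the 163, and between 135 (without rao1-2 mock replicate 1) and 172 when 1 array was left out. These centrings moved the median response of all probe sets by -0.22, -0.31 and -0.25 (poly(A)) and by -0.26, -0.21 and -0.01 (hybridisation) in rao1-1, rao1-2 and wild type. Members called lower for the difference in response numbered between 0 and 4 when 1 array was left out and 0 otherwise. Among the listed genes outside the members, 1 was called lower in rao1-2 with poly(A) centring, and between 6 and 8 higher there when 1 array was left out. Arrays of the same replicate number in different groups deviated together more than others did (median r 0.156 with 27 of 45 pairs over 0.1, against -0.0908 with 20 of 90), and 13 of 18 arrays had their highest mean r with their own number. The labels do not say what the number marks, so the main fit has no block and does not account for this shared deviation. With the replicate block, 163 members were called in each genotype and 0 for the difference in response. For this difference 0.233% of all probe sets were called lower and 0.246% higher in that fit. The mean responses of named members moved by more than the replicate spread in 33 of 1728 checks. That 0 were reversed also follows from the response limit of the choice. The share of promoters with a motif was not run, since no promoter sequences were used here. Signal over background does not limit the members, which were chosen above it.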
